A study of Homo sapiens with 6 samples.

Results

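Hepatic stellate cells are the pericytes of the liver and its main store of vitamin A. A quiescent stellate cell takes up retinol from retinol-binding protein, esterifies it and keeps the retinyl esters in lipid droplets. Retinol that is oxidised to retinoic acid acts through the retinoic acid receptors (RARs), which bind DNA as heterodimers with the retinoid X receptors (RXRs). On activation after injury the cells lose their droplets and become matrix-producing myofibroblasts. The genes described here are 7 that carry this biology: the receptor genes RARA, RARB and RXRA, the retinol transport gene RBP4, and 3 genes used as markers of stellate cells or of their resting state, RELN, HGF and CYGB. They were chosen by name from a set of 9 symbols and make up 7 of the 16569 genes of the table. The other 2 symbols, the retinol-esterifying enzyme gene LRAT and the retinal dehydrogenase gene ALDH1A1, were not analysed here.

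All 6 libraries came from LX-2, a wild-type human line of immortalised stellate cells. Cells grown with 2% fetal bovine serum were starved of serum for 18 h and then given phosphate-buffered saline (PBS, 3 libraries) or 100 ng/mL of IGFBP-7 (3 libraries) for 24 h. IGFBP-7 (insulin-like growth factor binding protein 7) is secreted by cells and found in their matrix. A cell line is 1 culture-adapted cell population with no hepatocytes or other liver cells around it, and the labels do not say whether libraries of 1 group are separate cultures, so the spread behind each p-value may be technical.

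Values are the authors' normalized counts, read counts divided by 1 size factor per library. Log2 changes are IGFBP-7 minus PBS on the log2(normalized count + 1) scale, with the standard error (SE) from limma-trend, and p-values are two-sided and Benjamini-Hochberg adjusted over all 11872 genes that had a mean of at least 10 normalized counts. A gene rose or fell where its adjusted p was under 0.05. The libraries held 20299671 to 21768983 reads with PBS and 22621471 to 27739998 with IGFBP-7. In each library 3 sequenced fragments corresponded to 5.08 to 6.41 normalized counts, below which a gene is treated as not detected. Of the stellate and myofibroblast markers, 8 of 10 were in the table and 7 had a mean of at least 10. Their summed level was 63831 to 67823 with PBS and 217570 to 236990 with IGFBP-7, most of it from the collagen gene COL1A1. The intermediate filament gene DES was listed at 0 in all PBS libraries. HAND2, of the same list, moved against the sum, from 107 ± 17.9 to 70.8 ± 12.1. The hepatocyte list summed to 361 to 405 and 380 to 472, with ALB, the albumin gene, at 0.712 ± 1.23 and 1.81 ± 1.71. Most of that sum came from SERPINA1, at 252 ± 26.5 and 227 ± 24.2, and ASGR1, at 118 ± 14.7 and 173 ± 34.1. The endothelial list summed to 324 to 359 and 435 to 504. Its leading gene TEK was at 138 ± 34.55 and 224 ± 35.1. STAB2 and CDH5 moved against that sum, STAB2 from 28.0 ± 3.36 to 15.5 ± 3.48 and CDH5 from 9.72 ± 6.38 to 0. The epithelial list summed to 13200 to 13580 and 16144 to 19603, with CDH1 listed at 0 in all PBS libraries and KRT18 as the leading gene. The macrophage and leukocyte list summed to 3282 to 3362 and 1728 to 2010, led by the lysosomal gene CD68, which went from 2863 ± 53.3 to 1466 ± 135, while the macrophage growth factor receptor gene CSF1R went the other way, from 56.5 ± 8.05 to 293 ± 44.3. The leukocyte gene PTPRC was at 5.59 ± 4.54 and 4.67 ± 3.17. The part of these markers in the results below was not tested.

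After 24 h with IGFBP-7, RELN fell 7.45-fold, RXRA fell 1.18-fold and RARA rose 1.51-fold. RARB, HGF and CYGB had lower means with IGFBP-7 but did not pass the test, and RBP4 was too low to be tested.

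One sequence in these genes ties the receptors to their own output. A retinoic acid response element is a direct repeat of a half-site, spaced by 1, 2 or 5 bases, and RAR-RXR heterodimers bind it. Each half-site searched was either the form AGGTCA, the form AGTTCA, the form GGGTCA or the form GGTTCA, in any combination. RARB is the textbook gene with such an element in its promoter. The 250 bases before 14 RefSeq transcript starts of 6 of the 7 genes (GRCh38.p14) were searched on both strands for these repeats, and the 141 starts of the wider list described below as well. CYGB had no entry. The RARB element is shown with CYP26A1, the gene of a retinoic acid-degrading enzyme, because these were the genes with a match. The half-sites are in capitals, and both lines read 5′ to 3′ along the gene and end at the last base before the transcript start.
RARB, chr3:25428170-25428262, plus strand: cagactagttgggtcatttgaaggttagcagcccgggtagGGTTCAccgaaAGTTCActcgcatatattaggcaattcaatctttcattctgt
CYP26A1, chr10:93073763-93073892, plus strand: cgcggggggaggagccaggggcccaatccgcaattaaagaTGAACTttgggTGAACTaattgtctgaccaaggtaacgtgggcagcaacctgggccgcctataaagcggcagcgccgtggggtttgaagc
The RARB element lies from base -53 to base -37 and has a spacing of 5. The CYP26A1 element lies from base -90 to base -74 and reads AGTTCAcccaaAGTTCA on the opposite strand, also with a spacing of 5. Repeats with a spacing of 5 were present before 26 of 35116 RefSeq starts (0.0740%), those with a spacing of 1 before 34 (0.0968%) and those with a spacing of 2 before 11 (0.0313%). No match says only that these letters were not in that window, and a match is not evidence of binding. RARB has 4 starts in the RefSeq table, and the deposited values are per gene, so the transcript that the element precedes was not measured on its own.

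**Figure D1:**
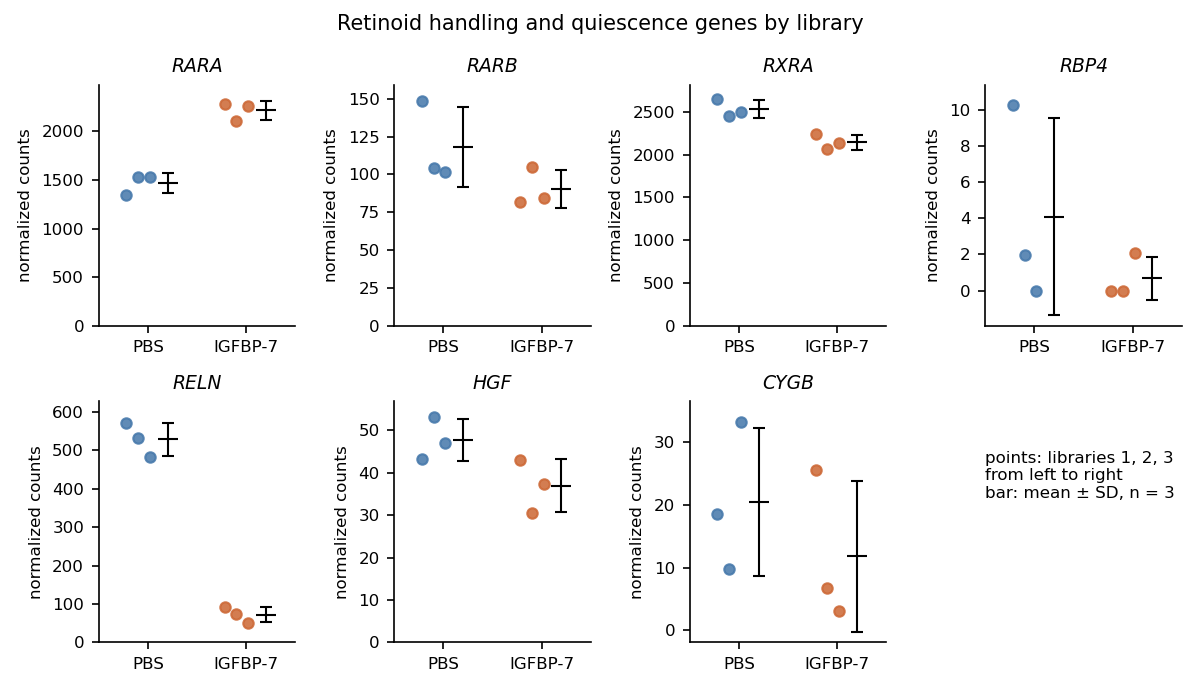
Normalized counts of the 7 genes in each library (y axes, starting at 0 except for RBP4 and CYGB, where an SD bar reaches below 0). Points are libraries 1 to 3 of each group and the bar is the mean ± SD of 3 libraries. RELN and RARA separate the groups widely, RXRA by less, and the RARB, RBP4 and CYGB points overlap.

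RARA encodes the retinoic acid receptor alpha. Its level was 1346, 1534 and 1526 normalized counts in the PBS libraries and 2285, 2101 and 2258 in the IGFBP-7 libraries. All 3 IGFBP-7 libraries lay above all 3 PBS libraries, and replicate 1 of the PBS group was the lowest. RARA rose from 1469 ± 106 to 2214 ± 99.1 (SD, n = 3), a log2 change of 0.59 ± 0.07 or 1.51-fold (limma adjusted p = 2.22e-10). The antisense gene RARA-AS1 is listed at 92.7, 115 and 154 with PBS and at 155, 124 and 196 with IGFBP-7, and these ranges overlap. The library kit keeps strand, but whether the counting used it is not stated in the labels, so reads where RARA and RARA-AS1 overlap cannot be assigned to either with certainty. The PBS mean of RARA-AS1 was 120 ± 30.9, against 1469 ± 106 for RARA.

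RARB encodes the retinoic acid receptor beta, a receptor and at the same time a target of retinoic acid through the element shown above. Its level was 148, 104 and 101 in the PBS libraries and 81.8, 105 and 84.7 in the IGFBP-7 libraries. The groups overlap, since replicate 2 of the IGFBP-7 group lay above 2 of the PBS libraries, and replicate 1 of the PBS group stands above the rest. The log2 change was -0.37 ± 0.21, with a 95% interval of -0.79 to 0.06 (limma adjusted p = 0.135). Without PBS replicate 1 it was -0.19 (adjusted p = 0.513). With each library scaled to its total it was -0.51 and passed (adjusted p = 0.0431). CYP26A1, which holds the same kind of element, was listed at 2.06, 1.96 and 2.14 with PBS and at 0, 11.9 and 4.13 with IGFBP-7. Only 1 of these 6 values, that of IGFBP-7 replicate 2, is above the level of 3 fragments, so no change in CYP26A1 could be read at this depth.

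RXRA encodes the retinoid X receptor alpha, the partner of the RARs and of several other nuclear receptors. Its level was 2655, 2451 and 2495 in the PBS libraries and 2237, 2065 and 2131 in the IGFBP-7 libraries. All 3 IGFBP-7 libraries lay below all 3 PBS libraries, though by little. RXRA fell from 2534 ± 107 to 2144 ± 86.8, a log2 change of -0.24 ± 0.06, with a 95% interval of -0.37 to -0.11 (limma adjusted p = 0.000972). Of its relatives, RXRG was listed at 3.09, 1.96 and 10.7 with PBS and at 2.04, 0 and 0 with IGFBP-7, too low for the test. Of these values, only that of PBS replicate 3 was above the level of 3 fragments. From 8 PBS fragments and 1 IGFBP-7 fragment the ratio was 0.117 (95% counting interval 0.00264 to 0.872, counting error only). RARG and RXRB were not analysed here.

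The 2 RAR genes were also set against each other within libraries. Per kilobase of annotated exon, RARA stood at 7.09, 11.5 and 11.7 times the level of RARB in the PBS libraries and at 21.8, 15.6 and 20.8 times in the IGFBP-7 libraries. This ratio is taken within a library and does not depend on how libraries are scaled. All 3 IGFBP-7 ratios lay above the PBS ratios, with means of 10.1 ± 2.62 and 19.4 ± 3.33, and the exact two-sided permutation test on the log2 ratio gave p = 0.1, the smallest value that 3 libraries against 3 allow.

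RBP4 encodes the plasma retinol-binding protein that carries retinol in the blood. It was listed at 10.3, 1.96 and 0 in the PBS libraries and at 0, 0 and 2.07 in the IGFBP-7 libraries. Only PBS replicate 1 exceeded the level of 3 fragments. With 6 fragments in the PBS libraries and 1 in the IGFBP-7 libraries the ratio of IGFBP-7 to PBS was 0.156, with a 95% counting interval of 0.00339 to 1.285 (exact binomial, counting error only), so no difference was detectable at this depth.

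RELN encodes reelin, a large secreted glycoprotein that stellate cells make in the liver and that is used as a marker of their lineage. Its level was 570, 533 and 483 in the PBS libraries and 91.0, 72.8 and 51.7 in the IGFBP-7 libraries. Every IGFBP-7 library lay far below every PBS library. RELN fell from 529 ± 44.0 to 71.8 ± 19.7, a log2 change of -2.90 ± 0.17, with a 95% interval of -3.24 to -2.56, or 7.45-fold lower (limma adjusted p = 7.22e-21). Of all tested genes, 0.354% had a log2 change as low or lower. The spread between libraries relative to the mean was 8.32% with PBS and 27.4% with IGFBP-7. In bulk RNA, fewer cells that express a gene and less RNA per cell cannot be told apart.

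HGF encodes hepatocyte growth factor, the stellate-derived mitogen of hepatocytes. Its level was 43.2, 53.0 and 47.0 in the PBS libraries and 42.9, 30.5 and 37.2 in the IGFBP-7 libraries. The groups do not overlap, but the lowest PBS value and the highest IGFBP-7 value, both of replicate 1, are nearly equal. The means were 47.8 ± 4.93 and 36.9 ± 6.23, and the log2 change of -0.37 ± 0.32 did not pass (95% interval -1.01 to 0.26, limma adjusted p = 0.315). These values rest on 70 and 57 fragments in all, and the IGFBP-7 to PBS ratio was 0.762 (counting interval 0.527 to 1.096).

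CYGB encodes cytoglobin, a haem protein that is found in stellate cells and used to mark them. Its level was 18.5, 9.82 and 33.1 in the PBS libraries and 25.6, 6.77 and 3.10 in the IGFBP-7 libraries. The groups overlap, and within each the values differ several-fold. IGFBP-7 replicate 3 lay under the level of 3 fragments, 6.20 in that library, so CYGB is treated as not detected there. The log2 change was -1.03 ± 0.62, with a 95% interval of -2.27 to 0.21 (limma adjusted p = 0.146), from 30 fragments with PBS and 18 with IGFBP-7. Without IGFBP-7 replicate 1 it was -1.78 and passed (adjusted p = 0.0281), and without IGFBP-7 replicate 3 it was -0.43 (adjusted p = 0.559).

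Of the 6 genes that could be tested, 1 rose and 2 fell, and 1 was higher and 3 lower without overlap between the groups. Among all genes tested 31.3% rose and 29.2% fell, 60.6% changed in either direction, and 32.9% were higher and 30.6% lower without overlap (63.5% either way). On recovered reads edgeR called 60.4% and DESeq2 58.5%. So these counts are near the background and are no result about the 7 genes. The median log2 change of the 6 genes was -0.37, and that of all tested genes was 0.024. Scaling each library to its total moved the median over all tested genes by -0.14 and left RARA rising, at a log2 change of 0.45, and RELN and RXRA falling, at -3.04 and -0.38.

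**Figure D2:**
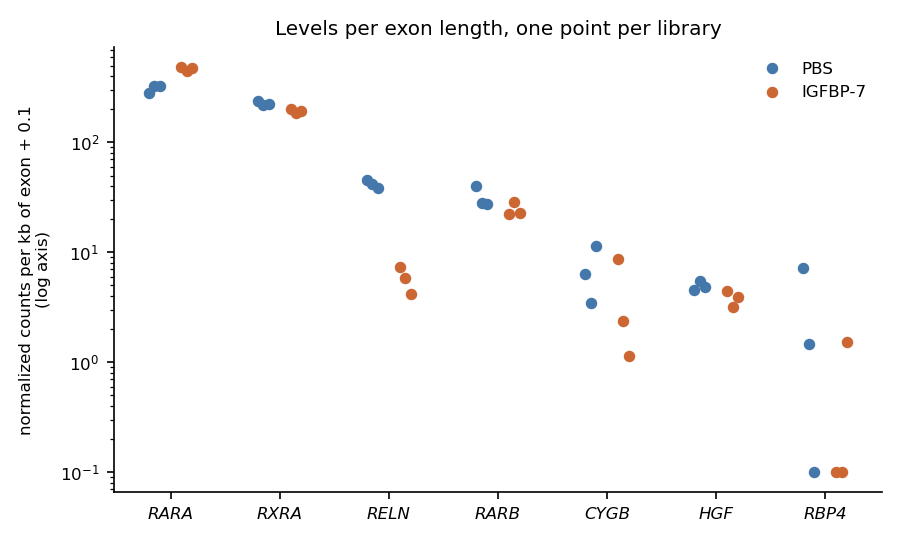
Normalized counts per kilobase of annotated exon, plus 0.1, on a log axis, 1 point per library, with the genes in order of their PBS mean. RELN drops from above RARB to near HGF and CYGB with IGFBP-7, while RARA and RXRA stay at the top.

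Levels of different genes were compared per kilobase of the union of their exons in GENCODE 29. With PBS, RARA came first at 310 ± 22.5 normalized counts per kilobase, followed by RXRA at 229 ± 9.66, RELN at 41.8 ± 3.48 and RARB at 31.9 ± 7.11. CYGB at 6.95 ± 3.99, HGF at 4.86 ± 0.503 and RBP4 at 2.82 ± 3.77 did not differ from each other beyond their spread, and the libraries of RELN and RARB overlapped. With IGFBP-7, RARA stood at 468 ± 21.0 and RXRA at 193 ± 7.83. RARB then followed at 24.5 ± 3.42, ahead of RELN at 5.68 ± 1.56. RELN, CYGB at 4.005 ± 4.08 and HGF at 3.76 ± 0.635 were within their spread, and RBP4 was last at 0.475 ± 0.823. The exon union counts every annotated transcript, so a level is understated for a gene whose cells use a short one.

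By the root mean square difference of log2 levels over the 6 libraries, each relative to its PBS mean, the tested genes most like RARA were TMEM39A (0.0323), RNF215 (0.0328) and ARF4 (0.0346), which encodes a small GTPase of the Golgi. TMEM39A went from 967 ± 35.5 to 1453 ± 64.1. Those most like RELN were the antisense gene CAVIN2-AS1 (0.124), the somatostatin receptor gene SSTR1 (0.196) and the carboxypeptidase gene CPA4 (0.203). SSTR1 went from 1161 ± 57.4 to 143 ± 16.6 and CPA4 from 4555 ± 139 to 672 ± 56.0.

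The wider setting of these genes was described with 11 lists of retinoid and quiescence genes. Of 121 genes listed, 90 were in the table and 62 were tested, of which 11 rose (17.7%, against 31.3% of all tested genes), 32 fell (51.6%, against 29.2%) and 19 did not pass. Their median log2 change was -0.34, against 0.024 for all tested genes. With each library scaled to its total 8 rose and 37 fell, and the medians were -0.48 and -0.12. Some genes stand in more than 1 list. The lists were chosen with earlier results of these data known, so the difference from all tested genes is a description and not a test. The counts include STRA6 and NR1H4, which each passed the filter on low values only through 1 group.

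**Figure D3:**
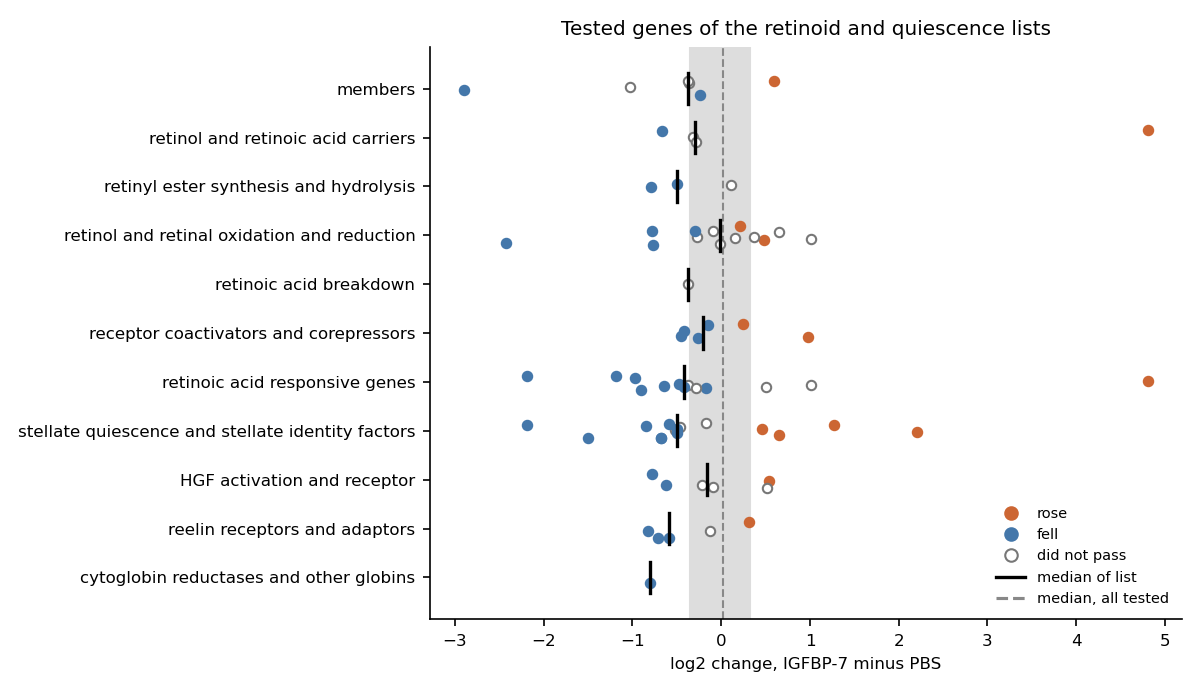
Log2 changes (x axis, IGFBP-7 minus PBS) of the tested genes in each list, 1 point per gene, coloured by call, with the list median as a black line. The grey band is the range from -0.35 to 0.32 that holds the middle quartiles of all tested genes and the dashed line is their median of 0.024. The medians of the quiescence (-0.50), retinoic acid responsive (-0.41) and reelin receptor (-0.58) lists lie left of the band. So do those of the 6 tested genes of the set (-0.37) and of the retinyl ester list (-0.49). The retinoic acid breakdown (-0.37) and cytoglobin reductase (-0.81) rows, of 1 tested gene each, do as well.

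Among the 4 tested carriers of retinol and retinoic acid, a rise was called for 1 and a fall for 1, and 2 did not pass. These are 25% each, against 31.3% and 29.2% of all tested genes. STRA6, the membrane receptor that takes up retinol from RBP4 protein, was at 6.18, 0 and 6.41 in the PBS libraries and at 165, 86.4 and 79.6 in the IGFBP-7 libraries. It was at or under the level of 3 fragments in each PBS library and far above it in each IGFBP-7 library, with IGFBP-7 replicate 1 highest. From 6 PBS and 170 IGFBP-7 fragments the ratio was 26.5 (95% counting interval 11.9 to 73.3). STRA6 passed the filter on low values only through its IGFBP-7 libraries, and is counted as the rise here and among the retinoic acid responsive genes below, also with no filter. Its fitted log2 change, 4.81 ± 0.54, depends on the pseudocount, being 5.20 with 0.5 and 3.67 with 5, and was 3.85 without PBS replicate 2, the library at 0. RBP7, a cellular retinol-binding protein gene, fell by 0.66 ± 0.23 on the log2 scale with overlapping groups, a call that was lost without PBS replicate 1 (limma adjusted p = 0.0672) or IGFBP-7 replicate 1 (adjusted p = 0.13). The retinoic acid-binding protein gene CRABP2 was at 92.0 ± 13.0 and 77.1 ± 22.0 and did not pass (adjusted p = 0.317). Among genes of retinyl ester turnover, 2 of 3 fell (66.7%, against 29.2% of all tested genes), a count over too few genes to compare. These were the lipase genes LIPE, from 640 ± 69.2 to 370 ± 39.5, and PNPLA2, from 5014 ± 251 to 3562 ± 204.

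Oxidation and reduction of retinol and retinal were covered by 13 tested genes, with 2 higher and 4 lower past the threshold and 7 not past it. The share that rose was 15.4%, against 31.3% of all tested genes, and the share that fell was 30.8%, against 29.2%. Counts over 13 genes are a description only. ALDH1A3 and ALDH1A2, genes of retinaldehyde dehydrogenases that make retinoic acid, both fell, ALDH1A3 from 534 ± 51.0 to 309 ± 5.67 and ALDH1A2 from 48.1 ± 12.4 to 27.2 ± 3.92. The ALDH1A2 call (limma adjusted p = 0.0486) was lost without PBS replicate 2 or 3 or IGFBP-7 replicate 1 or 3, with adjusted p between 0.0763 and 0.179. AOX1, an aldehyde oxidase gene, fell from 2718 ± 39.7 to 508 ± 50.8, a log2 change of -2.42 ± 0.08. The retinal reductase gene RDH11 rose from 6671 ± 269 to 9285 ± 66.4. ADH5, an alcohol dehydrogenase gene of formaldehyde clearance, rose by 0.21 ± 0.05, but by 0.07 and without passing when libraries were scaled to their total (adjusted p = 0.183). DHRS3, which encodes a retinal reductase induced by retinoic acid, was at 10.6 ± 5.13 and 21.5 ± 4.52 and did not pass (adjusted p = 0.093), though it did without PBS replicate 1 (adjusted p = 0.0427). Of the genes that degrade retinoic acid, CYP26B1 was at 81.6 ± 2.30 and 63.7 ± 12.4 and did not pass (adjusted p = 0.192).

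Of the 6 tested coregulators of nuclear receptors, 2 were called higher (33.3%, against 31.3% of all tested genes) and 4 lower (66.7%, against 29.2%). The comparison called 60.6% of all tested genes in either direction, so a count over so few genes is a description only. The coactivator gene NCOA3 rose by 0.25 ± 0.06, or by 0.10 without passing when libraries were scaled to their total (adjusted p = 0.0828). NRIP1, a corepressor gene that retinoic acid induces, fell from 3425 ± 272 to 2565 ± 91.8, and the actin crosslinker gene ACTN4 fell by 0.45 ± 0.04.

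Genes known to respond to retinoic acid fell in 8 of 13 tested cases (61.5%, against 29.2% of all tested genes). STRA6 was the 1 rise (7.69%, against 31.3%). The 4 that did not pass include DHRS3, CRABP2 and CYP26B1, given above, and DHRS3 was higher without overlap. In a comparison that called 60.6% of all tested genes, a count over so few genes is a description only. RARRES2, which encodes the adipokine chemerin, went from 724 ± 84.3 to 159 ± 28.4, a log2 change of -2.18 ± 0.13 or 4.54-fold lower. RARRES1, a retinoic acid receptor responder, fell from 88.7 ± 17.8 to 47.0 ± 10.8, and TGM2, the tissue transglutaminase gene, from 2668 ± 45.1 to 1364 ± 71.2. The homeobox gene HOXA5 fell from 107 ± 16.5 to 48.4 ± 18.1. These genes respond to other signals as well, and retinoic acid itself was not measured.

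**Figure D4:**
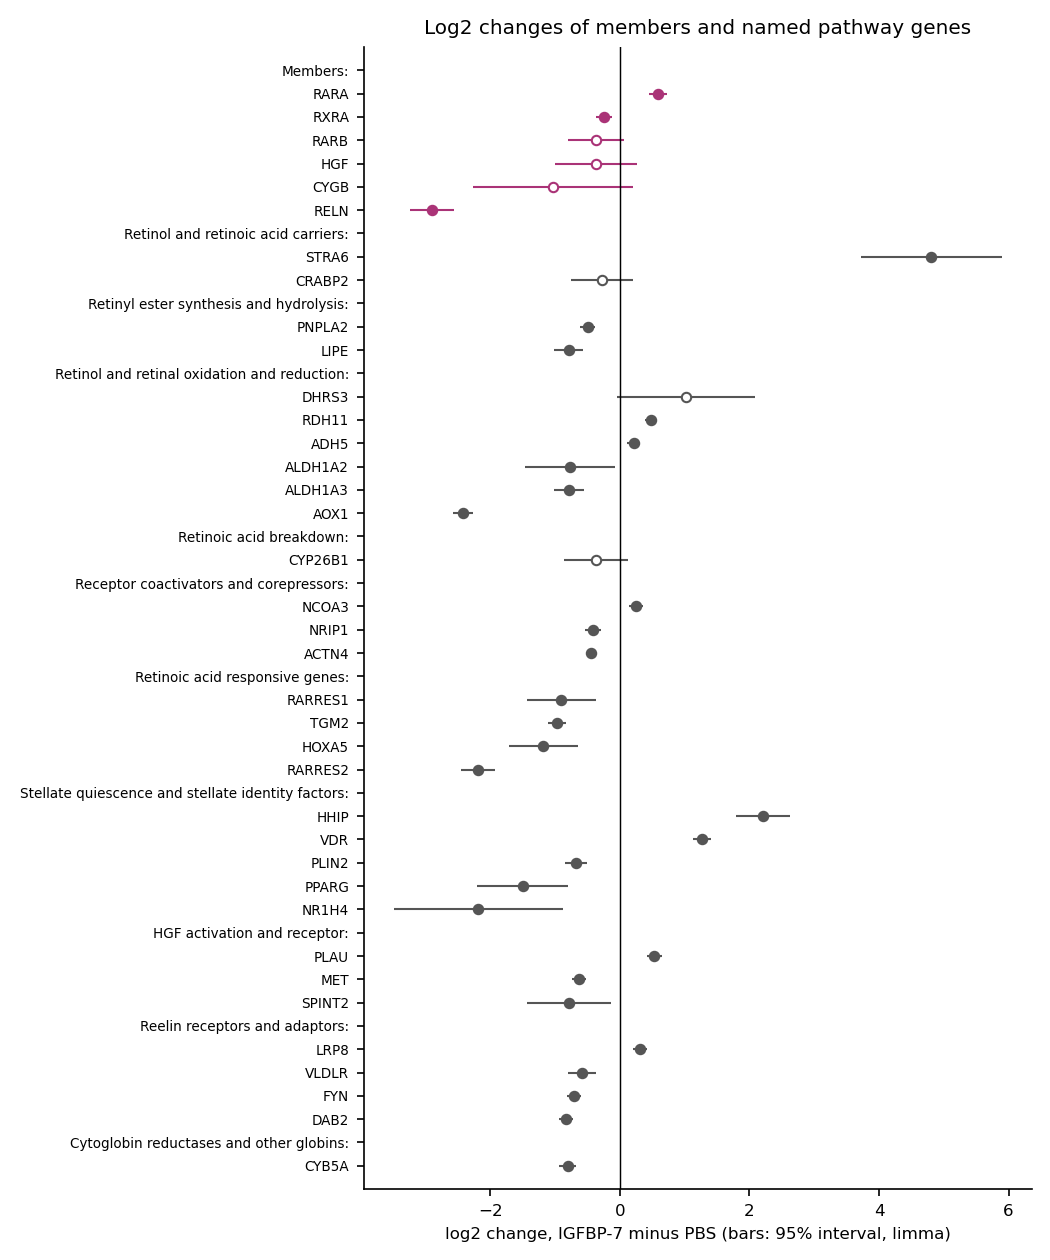
Log2 changes (x axis, IGFBP-7 minus PBS) with 95% intervals from limma. The 6 tested genes of the set are in purple. In grey are the 31 tested genes that the naming rule took from the wider lists, each under the first list that holds it. RBP7, PLIN4, GATA4, GATA6, BAMBI and DAB1, which were added later, are not drawn. Filled points passed at an adjusted p under 0.05. RELN at -2.90 is the lowest and STRA6 the highest, at a value of 4.81 that a pseudocount of 5 lowers to 3.67.

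Stellate quiescence and identity genes fell in 8 of 15 tested cases (53.3%, against 29.2% of all tested genes). They rose in 4 (26.7%, against 31.3%) and missed the threshold in 3. With 60.6% of all tested genes called, these counts over 15 genes are a description only. PPARG, the nuclear receptor gene that keeps stellate cells fat-storing, was at 57.7, 55.0 and 66.2 in the PBS libraries and 28.6, 20.3 and 14.5 in the IGFBP-7 libraries, a log2 change of -1.499 ± 0.35 (limma adjusted p = 0.00023). PLIN2, which encodes a coat protein of lipid droplets, fell from 1056 ± 54.3 to 661 ± 5.98, and its relative PLIN4 from 62.5 ± 3.84 to 35.0 ± 7.83, though the PLIN4 call was lost without IGFBP-7 replicate 1 (limma adjusted p = 0.0603). GATA4, a transcription factor gene of quiescent stellate cells, fell from 910 ± 41.3 to 567 ± 35.4. GATA6, of the same list, rose from 150 ± 26.3 to 204 ± 1.48 without overlap (limma adjusted p = 0.0155). The GATA6 call was lost without PBS replicate 3 (adjusted p = 0.0935) or with libraries scaled to their total (adjusted p = 0.105). NR1H4, the bile acid receptor gene, fell from 22.4 ± 6.56 to 4.67 ± 3.28, with 33 fragments against 7 and a ratio of 0.198 (counting interval 0.0741 to 0.456), and passed the filter only through its PBS libraries. VDR, the vitamin D receptor gene, rose from 1275 ± 112 to 3082 ± 172, a log2 change of 1.27 ± 0.07, and HHIP, which encodes a Hedgehog-binding inhibitor, from 87.2 ± 38.4 to 375 ± 23.7. BAMBI, which encodes a decoy receptor for TGF-beta that is known to be lost on activation, rose from 450 ± 12.1 to 710 ± 83.3.

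Of the 6 tested partners of HGF, 1 rose (16.7%, against 31.3% of all tested genes) and 2 fell (33.3%, against 29.2%). MET, the HGF receptor gene, fell from 6559 ± 180 to 4248 ± 128. PLAU, the urokinase gene, whose product can activate HGF, rose from 2862 ± 240 to 4136 ± 48.9. SPINT2, which encodes an inhibitor of HGF activators, had a log2 change of -0.78 ± 0.32 (limma adjusted p = 0.0321), a call that was lost without PBS replicate 1 or 2 or IGFBP-7 replicate 3, with adjusted p between 0.111 and 0.123. For reelin, 5 receptor and adaptor genes were tested. A rise was called for 1 (20%, against 31.3% of all tested genes) and a fall for 3 (60%, against 29.2%). With 60.6% of all tested genes called in either direction, the HGF and reelin counts are over too few genes to be results about these pathways. The reelin receptor genes moved in opposite directions: LRP8 rose from 4410 ± 202 to 5487 ± 371 and VLDLR fell from 597 ± 14.6 to 399 ± 29.4. The endocytic adaptor gene DAB2 fell from 9200 ± 460 to 5173 ± 217 and the kinase gene FYN from 4731 ± 135 to 2898 ± 73.7. DAB1, the gene of the reelin adaptor, was at 65.0 ± 13.4 and 60.4 ± 16.7 and did not pass (adjusted p = 0.72). CYB5A, the cytochrome b5 gene, whose product can reduce cytoglobin, fell from 2640 ± 127 to 1509 ± 92.9. ALDH1A2, ALDH1A3, LIPE, VLDLR and HHIP each have an antisense gene in the table, so their values carry the same uncertainty over strand as that of RARA. It weighs most on ALDH1A3, whose antisense gene ALDH1A3-AS1 was listed at 586 ± 5.98 with PBS and 361 ± 16.9 with IGFBP-7, above ALDH1A3 itself.

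**Figure D5:**
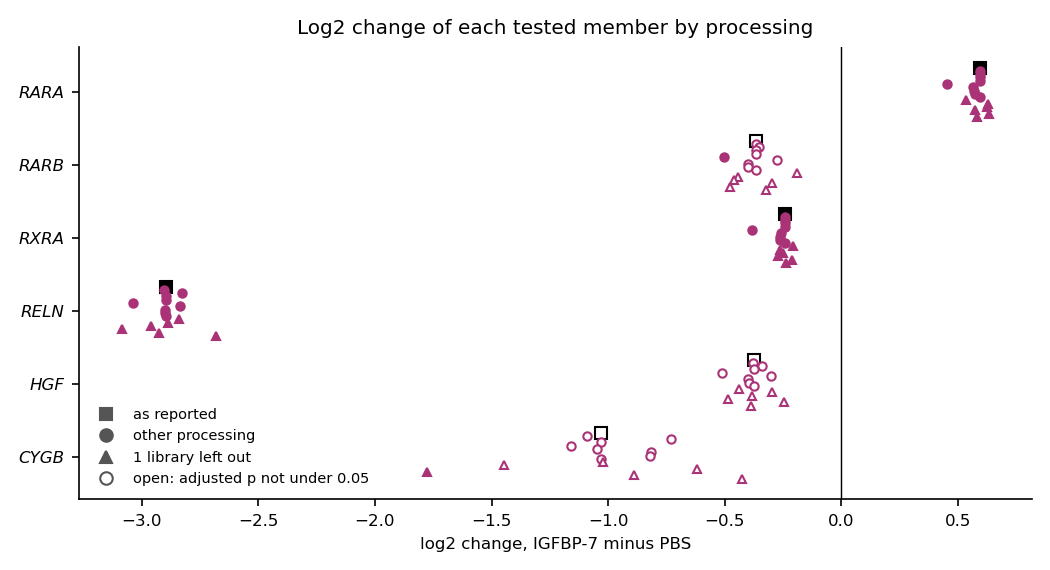
Log2 change (x axis, IGFBP-7 minus PBS) of each tested gene of the set as reported (square), under other processing (circles) and with 1 library left out (triangles). Filled symbols have an adjusted p under 0.05. RARA, RXRA and RELN are filled throughout, HGF is open throughout, and RARB and CYGB each have 1 filled symbol.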

How the data were processed

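Poly(A) RNA was sequenced with a directional kit, per the labels' protocols. The deposited table holds normalized counts, a signal that the authors made from read counts with 1 size factor per library, per the file headers and the values. STAR, Subread, featureCounts and DESeq2 are named per the submitters' processing notes, and the sources used here do not give a genome build, annotation or strand setting. Within a library 99.6% of nonzero values were whole multiples of 1 read within 0.01 of a read. The others were in rows that merge several Ensembl identifiers. Low counts were mostly even, so 2 reads were taken as 1 fragment. All 6 libraries entered 1 fit of the genes whose mean reached 10 normalized counts, with limma-trend on log2(value + 1), without covariates (limma 3.58.1, R 4.3.3). On recovered reads, rounded to whole numbers, edgeR 4.0.16 called 7171 genes and DESeq2 1.42.0 called 6943, against 7192 with limma. Other pseudocounts, filters, scalings, a replicate block and leaving out each library were also run. Libraries of a group differed by more than sampling noise (chi-square per degree of freedom 2.63 to 3.61), and all 6 were counted. Counting intervals leave out PCR duplicates, since the labels name no molecular identifiers. The genes, lists and tests were chosen with earlier results of these data known. Genes of the lists were named as the 2 largest rises and 2 largest falls per list without overlap, plus a fixed set of retinoid, HGF and reelin pathway genes. RBP7, PLIN4, GATA4, GATA6, BAMBI and DAB1 were added after their values were seen. Some genes of the lists enter the counts but are not reported here by name.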

Additional observations from a re-analysis of the deposited data

How the results depend on the processing

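RARA, RXRA and RELN kept their direction and their call under all 9 alternatives and in the 6 fits that each left out 1 library, with log2 changes of 0.45 to 0.63, -0.38 to -0.21 and -3.08 to -2.68. HGF stayed below 0 and did not pass in any fit that tested it, and a minimum mean of 100 left HGF and CYGB out of the test. RARB passed with libraries scaled to their total, at a log2 change of -0.51 (limma adjusted p = 0.0431, within 0.0431 to 0.264 over its alternatives), and CYGB, over the fits that left out 1 library, ranged from -1.78 to -0.43, passing without IGFBP-7 replicate 1. Scaling to the library total gave 2435 genes higher and 4176 lower, against 3721 and 3471. No pairing of the libraries by the replicate numbers of the titles was seen. Deviations of same-numbered libraries correlated at -0.0491 to 0.0117 and those of differently numbered ones at -0.0284 to 0.0719. With 3 libraries per group this cannot show that the libraries were unpaired. With the number as a replicate block 1 gene of the set rose and 2 fell, and 3715 of all tested genes rose and 3462 fell. Of the 31 tested genes that the naming rule took from the wider lists, 26 kept their call in every fit, and none reversed. Besides the losses given above, those of RBP7, PLIN4 and GATA6 included, ALDH1A2 was lost with the block, a pseudocount of 0.5, no filter or quantile normalization. SPINT2 was lost with no filter or quantile normalization. Depth limits RBP4, CYGB, HGF, CYP26A1 and RXRG, which rest on few fragments.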
